A study of Rattus norvegicus with 12 samples.

Results

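Metallothionein 1a (Mt1a), the glucocorticoid-induced genes Fkbp5, Tsc22d3 and Sgk, and the corticosteroid carrier Serpina6 were followed in rat liver across 6 comparisons of sex, hypophysectomy and growth hormone (GH). The genes were taken by name: every probe that is not a control and whose gene name is Mt1a (or Mt1), Fkbp5, Tsc22d3, Sgk (or Sgk1) or Serpina6. This gave 5 genes of 35561 distinct names on the array and 9 probes of 41012. Mt1a had 2 probes, Fkbp5 had 3, Tsc22d3 had 2, and Sgk and Serpina6 had 1 each. All 9 probes were tested in all 6 comparisons, and a gene is given by its brightest probe unless another is named.

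Metallothioneins are small cysteine-rich proteins that bind zinc and copper, and their genes are known to be switched on by metals, through the factor Mtf1, and by glucocorticoids. Glucocorticoids are steroids of the adrenal gland, whose output the pituitary drives through ACTH. They bind the receptor Nr3c1, which turns on Fkbp5, an Hsp90 co-chaperone that lowers the receptor's affinity for the hormone, Tsc22d3, an anti-inflammatory leucine zipper protein also called Gilz, and Sgk, a serine/threonine kinase that responds to serum and glucocorticoids. Serpina6, the corticosteroid-binding globulin, is a plasma protein made by hepatocytes that carries the hormone in the blood. In hypophysectomy the pituitary is taken out, so that GH, ACTH and its other hormones are lost.

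The animals were Fischer 344 rats of 12 weeks: untreated males (M), untreated females (F), hypophysectomised males (MH), hypophysectomised females (FH), and hypophysectomised males given GH by injection. Each of M, F, MH and FH was represented by 2 pools of 3 to 4 livers, with a different pool on each array of a comparison. MH rats given GH 1 time were killed 30, 60 or 90 minutes later and combined in 1 pool of 4 livers. MH rats given GH 2 times, with 3 or 4 hours between injections, were combined in 1 pool of 5 livers, and each GH pool was used on both of its arrays. The 12 arrays made 6 comparisons, each on 2 arrays with the dyes Alexa 555 and Alexa 647 exchanged. All rats of the GH comparisons, controls included, lacked a pituitary.

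Ratios are log2 of the first named RNA over the second, so 1 means a 2-fold higher level, and each estimate is the mean of 2 arrays with a standard error from 1 limma fit over all 12 arrays. A probe was called where its p, adjusted by Benjamini-Hochberg over all probes tested in that comparison, was under 0.05. Between 58.9% and 71.7% of spots were well above background in a channel, and no spot was saturated. The arrays of a comparison agreed to different degrees, with r across probes from 0.04 for MH over FH to 0.86 for FH over F. All 8 hepatocyte markers were tested in every comparison. With each array centred on its median in place of loess, 2 of the 22 calls of these 5 genes over the 10 comparisons and contrasts below were kept, the rises of Mt1a after hypophysectomy in each sex.

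The promoter of Mt1a is shown because the gene had the largest ratio of the 5 and because RefSeq's window, from 250 bases before to 50 bases after the start, holds the letters of the metal response element. In build GRCr8 the gene is named Mt1, and the window lies at chr19:10832926-10833225 on the minus strand. It is written 5′ to 3′ along the gene, with matches to TGCACNC or TGCGCNC on either strand in capitals.
Mt1 promoter: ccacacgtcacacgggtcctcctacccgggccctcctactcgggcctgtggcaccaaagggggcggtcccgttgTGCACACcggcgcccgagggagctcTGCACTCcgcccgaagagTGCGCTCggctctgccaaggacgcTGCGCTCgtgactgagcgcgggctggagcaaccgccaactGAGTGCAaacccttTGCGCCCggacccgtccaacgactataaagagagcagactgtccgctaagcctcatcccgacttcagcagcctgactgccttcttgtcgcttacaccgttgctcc
The window held 6 matches, 5 as written and 1 on the other strand, the first beginning at base -176 and the last at base -55. At least 6 matches were found in 13 of 33469 windows of the same length (0.0388%), and at least 1 in 24.2%. Of the other members, 7 windows of Fkbp5, Sgk1 and Tsc22d3 were in the table, and 1 of the 3 windows of Tsc22d3 held 1 match. The letters AGAACA, on either strand, which form one arm of the glucocorticoid response element, were in none of the 8 windows and in 20.7% of all windows. The full palindrome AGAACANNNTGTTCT, which contains that arm on both strands, was likewise in none of the 8, and in 0.0149% of all windows. These are matches of letters in a short window and say nothing of binding, and Serpina6 has no entry in the table.

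Mt1a rose after hypophysectomy in both sexes, and this was the largest change of the 5 genes. In males the log2 ratio of MH over M was 2.17 on array 1 and 2.96 on array 2. The estimate was 2.56 ± 0.31, a 5.91-fold higher level (adjusted p = 0.000524). In females the ratio of FH over F was 1.57 on array 1 and 3.23 on array 2, with an estimate of 2.40 ± 0.31 or 5.26-fold (adjusted p = 0.000731). All 4 arrays were above 0, and both rises were called under all 15 alternatives run for each. The male response minus the female response was 0.37 ± 0.31, with a 95% interval from -0.34 to 1.09, and was not called (adjusted p = 0.496).

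In untreated rats Mt1a was lower in males. The ratio of M over F was -1.10 on array 1 and -1.31 on array 2, and the estimate was -1.20 ± 0.31, 2.30-fold lower in males (adjusted p = 0.034). This call was less firm than the rises. Without the first array the estimate was -0.45 (adjusted p = 0.563), and without the second it was -1.95. An estimate from 1 array differs from that array's own ratio because the dye term, fitted on the other arrays, is taken off. It was also lost with the replicate number as a block (adjusted p = 0.0514) and in 5 other settings of the 15, with the same direction in all of them.

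After hypophysectomy the ratio of MH over FH for Mt1a was 0.42 on array 1 and -1.67 on array 2 (estimate -0.62 ± 0.31, adjusted p = 0.431). These ratios, before the dye term was taken off, lay on opposite sides of 0. The array ratios of the GH comparisons also disagreed in sign before that term was taken off. With GH given 1 time they gave -1.05 and 0.94 (estimate -0.06 ± 0.31, adjusted p = 0.93) and GH given 2 times gave -0.66 and 1.33 (estimate 0.34 ± 0.31, adjusted p = 0.505). The fitted difference between dyes for this probe was 0.73 on the log2 scale, against -0.24 to -0.01 for the brightest probes of the other 4 genes. The 4 comparisons among M, F, MH and FH form a loop whose sum should be 0, and for Mt1a it was -0.41, larger in size than for 99.6% of probes. The sum adds 4 estimates with an SE of 0.31 each for this probe. The rank was not scaled by that error, so it does not show that the sum differs from 0.

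Through MH, each GH group can be set against untreated males. By its brightest probe Mt1a stayed above the untreated male level, by 2.51 ± 0.44 after GH 1 time (adjusted p = 0.00719) and by 2.90 ± 0.44 after GH 2 times (adjusted p = 0.00204). Both values share the MH over M arrays. Both calls were lost without the dye term (adjusted p = 0.126 and 0.0594), and the first also without the second array of its GH comparison (2.18, adjusted p = 0.0804).

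The second probe named Mt1a, designed on the expressed sequence tag DV714812, had a larger standard error (0.65 against 0.31). It was called in none of the 6 comparisons. Its levels lay close together among arrays of 1 number and apart between the numbers. In M they were 10.55 and 10.73 on arrays numbered 1 and 11.68 and 11.83 on those numbered 2. In FH they were 12.65 and 12.73, then 13.85 and 13.90. Its ratio of MH over M was 2.01 on array 1 and -0.23 on array 2 (estimate 0.89 ± 0.65, adjusted p = 0.318). Its ratio of FH over F was 1.07 and 1.96 (estimate 1.52 ± 0.65, adjusted p = 0.106). It had the direction of the brightest probe in 5 of the 6 comparisons and the opposite one for GH given 2 times, where it was -0.55 ± 0.65. Against untreated males it did not repeat the calls of the brightest probe. It gave 0.18 ± 0.92 after GH 1 time (adjusted p = 0.912) and 0.35 ± 0.92 after GH 2 times (adjusted p = 0.82). Its male minus female response to hypophysectomy was -0.59 ± 0.65 (adjusted p = 0.621), opposite in sign to that of the brightest probe.

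**Figure D1:**
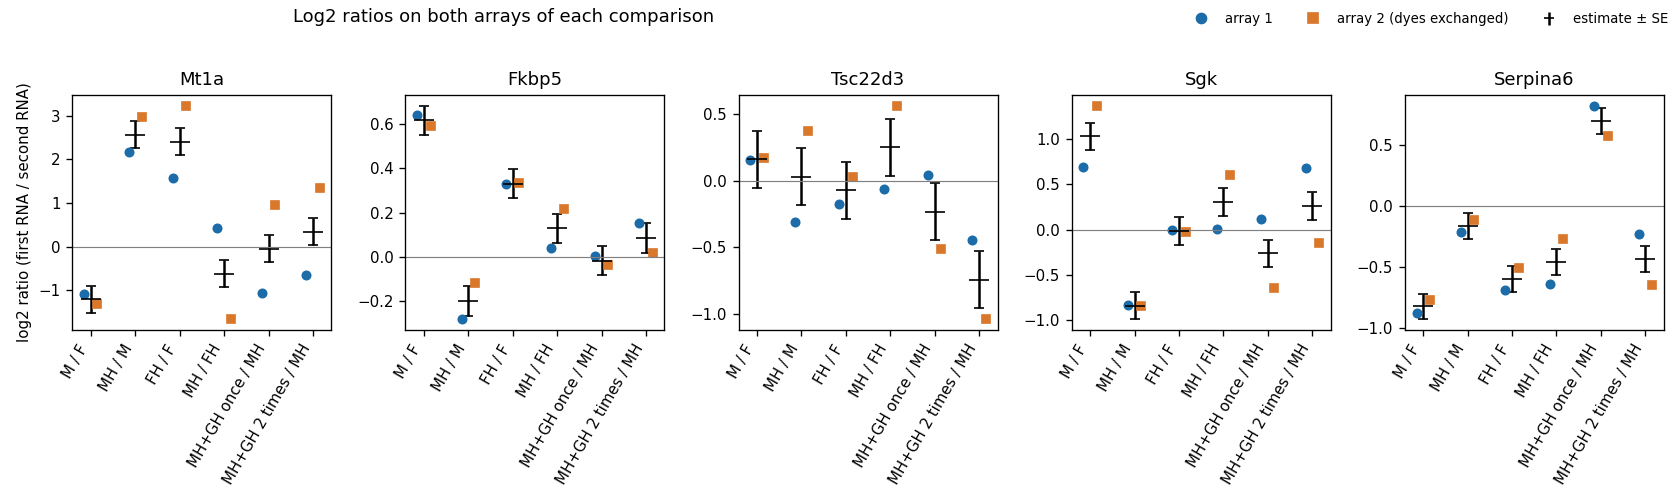
Log2 ratios of the 5 genes on each array of the 6 comparisons. Circles are the first array, squares the second with dyes exchanged, and black bars the estimate ± SE, with a separate vertical axis for each gene. Mt1a lies above 0 on all 4 arrays of hypophysectomy, while its GH arrays lie on both sides of 0. The points of single arrays still hold the dye difference, which the estimate does not. Serpina6 is above 0 on both arrays of GH given 1 time and below 0 on both arrays of GH given 2 times.

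Fkbp5 was higher in untreated males and moved in opposite directions after hypophysectomy in males and females. The ratio of M over F was 0.64 on array 1 and 0.59 on array 2, and the estimate was 0.62 ± 0.07, 1.53-fold higher in males (adjusted p = 0.000504). In males MH over M was -0.28 and -0.12, with an estimate of -0.20 ± 0.07 (1.15-fold lower, adjusted p = 0.0461). In females FH over F was 0.33 on both arrays, with an estimate of 0.33 ± 0.07 (1.26-fold higher, adjusted p = 0.00576). The male minus the female response was -0.51 ± 0.07 (adjusted p = 0.00186). After hypophysectomy the sexes were close, with MH over FH at 0.04 and 0.22 (estimate 0.13 ± 0.07, 95% interval -0.02 to 0.28, adjusted p = 0.446).

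The fall of Fkbp5 in males was the least firm of these. It was lost in 10 of 15 settings, among them the deposited processed signals (adjusted p = 0.0775). Without the first array it was -0.09 and without the second -0.31, and with median centring it turned to 0.035. The female rise was 0.35 without the first array (adjusted p = 0.0715) and 0.32 without the second (adjusted p = 0.0831). The second probe of the gene gave 0.36 ± 0.05 for M over F (adjusted p = 0.00189), 0.22 ± 0.05 for FH over F (adjusted p = 0.0103) and -0.31 ± 0.05 for the difference of responses (adjusted p = 0.0051), and for MH over M it gave -0.02 ± 0.05 (adjusted p = 0.819). The third and dimmest probe had the direction of the brightest in these comparisons but was called in none, with 0.37 ± 0.11 for M over F (adjusted p = 0.0603) and -0.31 ± 0.11 for the difference (adjusted p = 0.11).

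GH left Fkbp5 within the spread of the arrays. After GH 1 time its ratios were 0.0027 and -0.03 (estimate -0.02 ± 0.07, 95% interval -0.17 to 0.14). After GH 2 times they were 0.15 and 0.02 (estimate 0.09 ± 0.07, 95% interval -0.07 to 0.24). The adjusted p-values were 0.906 and 0.407. Against untreated males the 2 GH groups had -0.21 ± 0.09 (adjusted p = 0.148) and -0.11 ± 0.09 (adjusted p = 0.419).

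**Figure D2:**
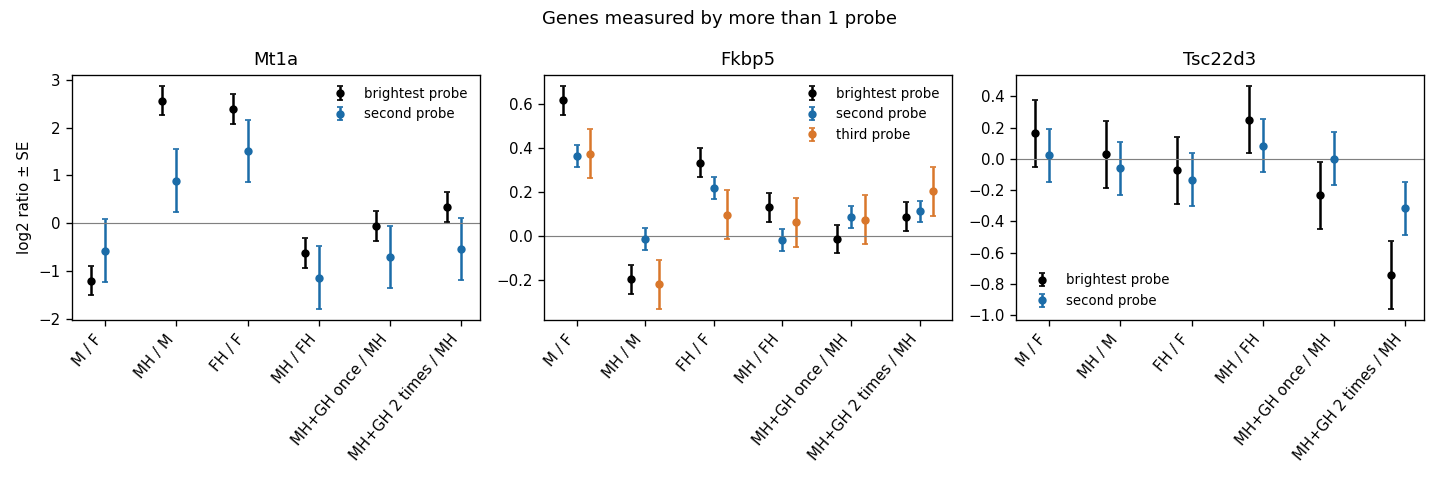
Log2 ratio ± SE of every probe of the 3 genes that have more than 1 probe, in the 6 comparisons. The second Mt1a probe has an SE of 0.65 against 0.31 for the brightest. The Fkbp5 probes lie on the same side of 0 for M over F and FH over F, and the second Tsc22d3 probe has the smaller ratio after GH given 2 times.

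Sgk had the pattern of Fkbp5 in untreated rats and in males, with larger ratios, and gave -0.02 in females. The ratio of M over F was 0.69 on array 1 and 1.37 on array 2, and the estimate was 1.03 ± 0.15, 2.04-fold higher in males (adjusted p = 0.00278). In males MH over M was -0.84 and -0.85, with an estimate of -0.84 ± 0.15 (1.79-fold lower, adjusted p = 0.00354). In females FH over F was -0.0067 and -0.03 (estimate -0.02 ± 0.15, 95% interval -0.37 to 0.33, adjusted p = 0.938). The male minus the female response was -0.78 ± 0.15 (adjusted p = 0.0126). Without the first array of MH over M that fall was -0.56 (adjusted p = 0.0639), and without the second array of M over F the sex difference was 0.91 (adjusted p = 0.0838) and the difference of responses -0.72 (adjusted p = 0.0586).

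In the remaining comparisons the array ratios of Sgk lay apart before the dye term, -0.24 for this probe, was taken off. MH over FH was 0.0023 on array 1 and 0.60 on array 2 (estimate 0.30 ± 0.15, adjusted p = 0.437). With GH given 1 time it gave 0.12 and -0.64 (estimate -0.26 ± 0.15, adjusted p = 0.298), and GH given 2 times gave 0.67 and -0.15 (estimate 0.26 ± 0.15, adjusted p = 0.257). With the dye term taken off, estimates without the first array and without the second had the same sign. They were 0.37 and 0.23 for MH over FH, -0.43 and -0.10 for GH 1 time, and 0.05 and 0.47 for GH 2 times. The dye term may hold more than the dye. With Alexa 647 the MH level was 11.95 to 12.00 on arrays numbered 1 but 12.43 on array 2 of MH over M. With Alexa 555 it was 11.93 on array 1 of MH over M and 12.61 to 12.73 on arrays numbered 2. The same sign therefore does not show that the arrays agreed, and the part of the dye was not tested. Against untreated males Sgk was lower after GH 1 time, at -1.11 ± 0.21 (adjusted p = 0.0109), and had -0.58 ± 0.21 after GH 2 times (adjusted p = 0.078). The first of these was -0.94 without the second array of its GH comparison (adjusted p = 0.108).

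Tsc22d3 was called in 1 comparison only, GH given 2 times, where its ratio was -0.44 on array 1 and -1.04 on array 2. The estimate was -0.74 ± 0.22, 1.67-fold lower than MH (adjusted p = 0.0314). Without the first array it was -1.01 (adjusted p = 0.0821) and without the second -0.47 (adjusted p = 0.404). The second probe gave -0.18 and -0.45 (estimate -0.31 ± 0.17, adjusted p = 0.219), and the mean of both probes was not called either (-0.53, adjusted p = 0.0731). After GH 1 time the brightest probe had 0.04 and -0.51 (estimate -0.23 ± 0.22, adjusted p = 0.529). The difference between the 2 GH groups was -0.51 ± 0.30 and was not called (adjusted p = 0.366).

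Sex and hypophysectomy gave no call for Tsc22d3. M over F was 0.16 and 0.17 (estimate 0.16 ± 0.22, 95% interval -0.33 to 0.66), MH over M was -0.31 and 0.37 (0.03 ± 0.22, -0.47 to 0.53), and FH over F was -0.17 and 0.03 (-0.07 ± 0.22, -0.57 to 0.42). Their adjusted p-values were 0.691, 0.927 and 0.821. The intervals are wide enough to hold a change of more than 1.2-fold in either direction.

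**Figure D3:**
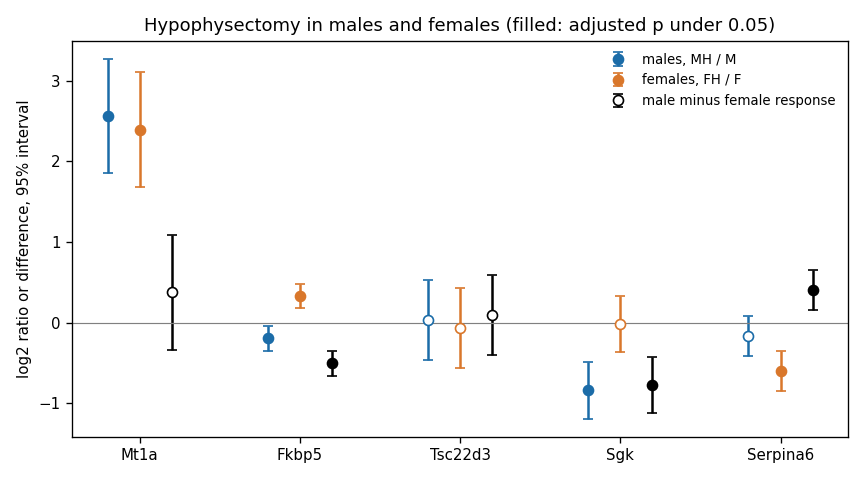
Hypophysectomy in males (MH over M), in females (FH over F) and the male minus the female response, as log2 values with 95% intervals for each of the 5 genes. Filled points have an adjusted p under 0.05. Mt1a is above 0 in both sexes, Fkbp5 lies on opposite sides of 0 in the 2 sexes, and the difference of responses is called for Fkbp5, Sgk and Serpina6.

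Serpina6 was lower in untreated males, fell in hypophysectomised females and moved in opposite directions after the 2 GH regimens. The ratio of M over F was -0.88 on array 1 and -0.77 on array 2, and the estimate was -0.82 ± 0.11, 1.77-fold lower in males (adjusted p = 0.00141). In females FH over F was -0.69 and -0.51, with an estimate of -0.60 ± 0.11 (1.52-fold lower, adjusted p = 0.00339). Without the first array it was -0.41 (adjusted p = 0.0984). In males MH over M was -0.22 and -0.11 (estimate -0.16 ± 0.11, 95% interval -0.41 to 0.08, adjusted p = 0.26). The male minus the female response was 0.40 ± 0.11 (adjusted p = 0.0434), a call lost in 10 of 20 alternatives, in which the difference lay between 0.30 and 0.54.

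Both arrays of MH over FH were below 0 for Serpina6, at -0.64 and -0.27. The estimate was -0.46 ± 0.11 and was not called (adjusted p = 0.109). It was called where 1 coefficient was fitted for each RNA in place of each comparison (-0.44, adjusted p = 0.0275).

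Serpina6 was higher after GH 1 time, with ratios of 0.83 and 0.58 on the 2 arrays. The estimate was 0.70 ± 0.11, 1.63-fold above MH (adjusted p = 0.00458). It was below MH after GH 2 times, with ratios of -0.22 and -0.64 and an estimate of -0.43 ± 0.11 (1.35-fold lower, adjusted p = 0.0153). The 2 groups differed by -1.14 ± 0.15 (adjusted p = 0.0039), 2.20-fold lower after GH 2 times, which was the 66th most negative difference of the 26204 probes tested. Without the first array of GH given 1 time this difference was -1.07 (adjusted p = 0.0524). Without the second array of GH given 2 times the fall against MH was -0.27 (adjusted p = 0.299).

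The rise after GH 1 time was 0.64 without its first array (adjusted p = 0.114) and 0.77 without its second (adjusted p = 0.0784). Against untreated males Serpina6 was higher after GH 1 time (0.54 ± 0.15, adjusted p = 0.0409) and lower after GH 2 times (-0.60 ± 0.15, adjusted p = 0.0195). The first of these was lost in 7 of 14 settings and the second in 3 of 14. Each GH group was 1 pool, so regimen and pool cannot be told apart, and the p-values hold no spread between GH-treated rats. Rats given GH 1 time were killed 30 to 90 minutes after it, while the first of 2 injections came at least 3 hours before killing. The number of injections and the time since the first therefore cannot be told apart either. Both regimens and the MH RNA they were compared with shared 1 slide, while the ratios against untreated males also rest on arrays of the other 2 slides.

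**Figure D4:**
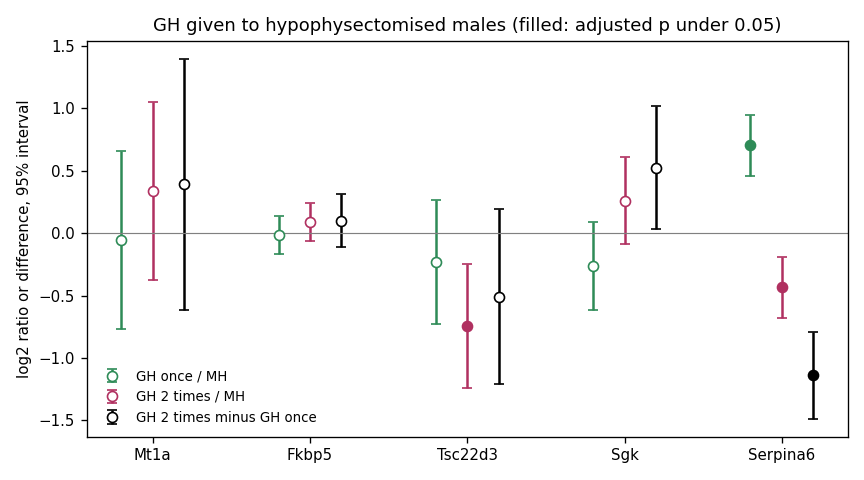
GH given 1 time over MH, GH given 2 times over MH, and the difference between them, as log2 values with 95% intervals for each of the 5 genes. Filled points have an adjusted p under 0.05. For Serpina6 the 3 points are 0.70, -0.43 and -1.14, and Tsc22d3 is the only other gene with a filled point.

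The levels of each RNA, as log2 intensity after scaling the arrays to each other, show the spread behind these ratios. For Mt1a the lowest level on an array was 14.85 in M and 14.98 in F, and the highest was 16.23 and 17.08. It was between 16.43 and 18.40 in MH, with a median of 17.74, and between 17.30 and 18.38 in FH. The M arrays lay below all MH and FH arrays, and the F arrays overlapped with MH. For Serpina6 the order of means was F (15.75), GH 1 time (15.61), FH (15.16), M (14.87), MH (14.83) and GH 2 times (14.61). M and MH overlapped, and so did FH and MH, while the 4 arrays of F (15.65 to 15.88) lay above those of FH (15.09 to 15.24).

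For Fkbp5 the 4 arrays of F (9.47 to 9.81) lay below all arrays of the other groups, whose means ran from 10.07 in FH to 10.30 in M and whose ranges overlapped between neighbours. For Sgk the 4 arrays of M (12.77 to 13.45) lay above all others, and the remaining means ran from 12.03 in FH to 12.62 after GH 2 times. For Tsc22d3 both arrays of GH 2 times (11.61 and 11.65) lay below all others, which overlapped between 11.99 and 12.69. No order between overlapping groups can be read from these levels.

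**Figure D5:**
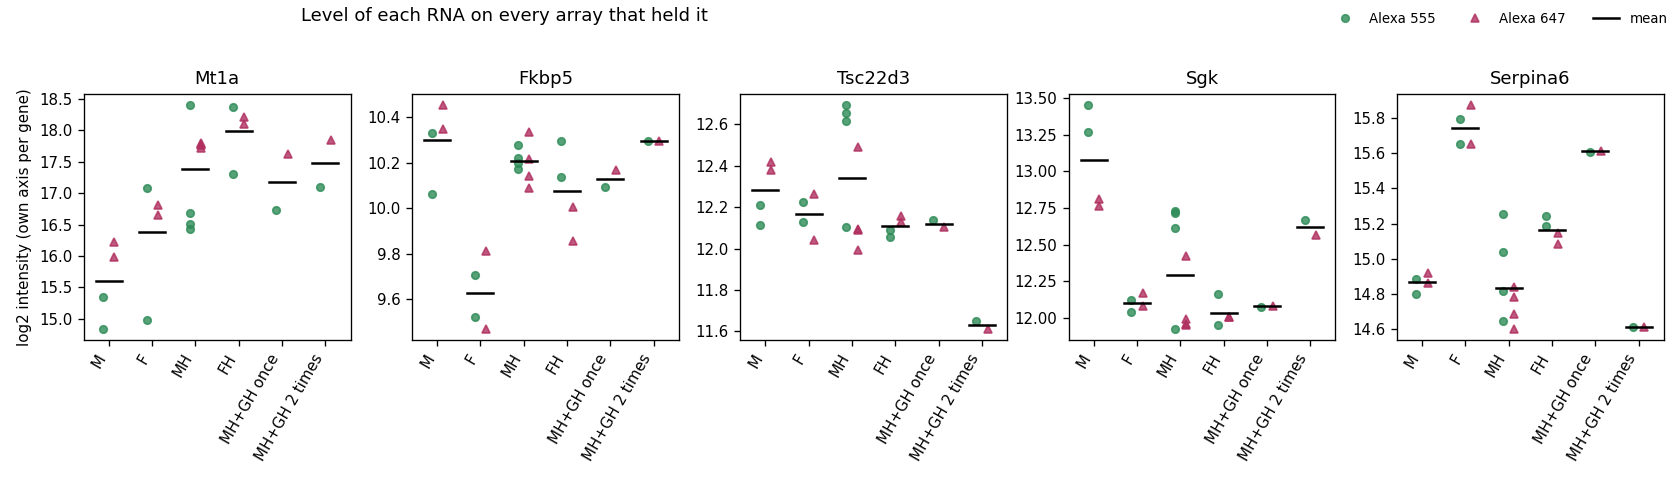
Log2 intensity of each RNA on every array that held it, by dye, with the mean of each group as a line and a separate axis for each gene. M, F and FH were on 4 arrays, MH on 8 and each GH pool on 2. The Mt1a points spread over more than 1 log2 unit within M, F, MH and FH, and the MH points of Tsc22d3 and Sgk form a higher and a lower set.

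The MH RNA differed between arrays numbered 1 and arrays numbered 2 in the labels. For Sgk it was 11.93 to 12.00 on the 4 arrays numbered 1 and 12.43 to 12.73 on the 4 numbered 2. For Tsc22d3 it was 11.99 to 12.10 on those numbered 1 and 12.49 to 12.69 on those numbered 2. The second Mt1a probe went the other way, at 12.65 to 12.74 and 11.45 to 11.62. The sets did not overlap for these 3 probes, for the second Tsc22d3 probe (8.24 to 8.37 and 8.62 to 8.86) or for the third Fkbp5 probe (7.42 to 7.56 and 7.62 to 7.93). They overlapped for the brightest Mt1a probe (17.72 to 18.40 and 16.43 to 17.80), the other two Fkbp5 probes and Serpina6. The labels do not say which MH pool was on which array, and the part of the pool in these differences was not tested.

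Of the 5 genes, 2 were called higher and 2 lower in M over F, where 15.5% of all probes tested were called. In MH over M it was 1 higher and 2 lower against 37.5% of all probes, and in FH over F 2 higher and 1 lower against 36.3%. In MH over FH limma called none, with 1 at an unadjusted p under 0.05, against 0.949% of all probes called. For GH given 1 time it was 1 higher and none lower against 14.3%, and GH given 2 times none higher and 2 lower against 30.8%. The difference of hypophysectomy responses was called for 3 of 5 (13.5% of all probes), and the difference between GH groups for 1 of 5 (10.4%). Against untreated males, 3 were called after GH 1 time (19.4%) and 2 after GH 2 times (29.1%). The median ratio of the 5 lay between -0.16 and 0.16 in the 6 comparisons, against -0.01 to 0.01 over all probes, since the members went in both directions.

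Genes of the receptor and of steroid supply were called in 5 of the 6 comparisons. The receptor Nr3c1 had a ratio of 0.31 ± 0.07 in M over F (adjusted p = 0.0177), 0.49 ± 0.07 after GH 1 time (adjusted p = 0.00322) and 0.27 ± 0.07 after GH 2 times (adjusted p = 0.0155). Hsd11b1, which regenerates active glucocorticoid inside liver cells, was 3.35 ± 0.09 higher in M than in F (adjusted p = 2.21e-07). It rose by 3.79 ± 0.09 after hypophysectomy in females (adjusted p = 3.23e-07) and by 0.72 ± 0.09 in males (adjusted p = 0.000513), and fell after both GH regimens (-0.48 ± 0.09 and -0.36 ± 0.09). In FH over F the steroid 5α-reductase Srd5a1 fell (-3.43 ± 0.19), as did Hsd11b2, which inactivates glucocorticoid (-2.87 ± 0.33), and the 5β-reductase Akr1d1 rose (1.79 ± 0.12).

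In this list of 16 genes on the receptor, its partners and steroid supply, 14 were tested in M over F, of which 3 were higher and 4 lower, where 15.5% of all probes were called. MH over M had 5 higher and 4 lower of 14 (37.5% of all probes), and FH over F 2 higher and 6 lower of 14 (36.3%). After GH 1 time 3 of 14 were higher and 2 lower (14.3% of all probes), after GH 2 times 7 of 15 were higher and 5 lower (30.8%), and limma called none of 15 in MH over FH (2 at an unadjusted p under 0.05). The list medians lay between -0.25 and 0.09 in the 6 comparisons.

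Other genes that glucocorticoids are known to induce in liver went in both directions. Of 29 tested in MH over M, 11 were higher and 7 lower, and of 29 in FH over F 10 were higher and 9 lower, where 37.5% and 36.3% of all probes were called. In M over F 5 of 28 were higher and 3 lower, against 15.5% of all probes. GH given 1 time had 2 higher and 6 lower of 29 (14.3% of all probes), GH given 2 times 8 higher and 7 lower (30.8%), and limma called none in MH over FH (3 at an unadjusted p under 0.05). Igfbp1, a binding protein of insulin-like growth factors, rose in MH over M (3.00 ± 0.20, adjusted p = 3.17e-05) and in FH over F (1.52 ± 0.20). G6pc, the glucose-releasing phosphatase, fell after GH 2 times (-1.90 ± 0.19, adjusted p = 0.000195), and Errfi1, a feedback inhibitor of the EGF receptor, rose there (1.75 ± 0.51, adjusted p = 0.0325). Angptl4, an inhibitor of lipoprotein lipase, fell in FH over F (-1.72 ± 0.46, adjusted p = 0.0209). The list medians lay between -0.06 and 0.07.

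Metal-handling genes other than Mt1a went in both directions after hypophysectomy. In MH over M 4 of 24 were higher and 8 lower, with a list median of -0.13, and in FH over F 5 of 21 were higher and 8 lower, with a median of -0.11. Of all probes 37.5% were called in MH over M (4938 higher and 4799 lower) and 36.3% in FH over F (4348 higher and 4488 lower). M over F had 3 higher and 1 lower of 23 (15.5% of all probes called), and MH over FH 0 and 1 of 24 (0.949%). GH given 1 time had 3 and 2 of 22 (14.3%), and GH given 2 times 6 and 6 of 23 (30.8%). Hamp, the hormone hepcidin that blocks iron export, rose in MH over M (2.23 ± 0.26, adjusted p = 0.000437). The zinc exporter Slc30a2 fell in MH over M (-1.71 ± 0.15, adjusted p = 0.000115), as did the copper importer Slc31a1 (-1.34 ± 0.18, adjusted p = 0.000837), and the zinc importer Slc39a4 fell in FH over F (-1.39 ± 0.21, adjusted p = 0.00169).

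Markers of other cells moved in the same comparisons. Of 4 erythroid markers 2 were on the array, and both fell after hypophysectomy. Hbb had -3.69 ± 0.24 and Alas2 -2.07 ± 0.08 in MH over M, and -1.48 ± 0.24 and -0.96 ± 0.08 in FH over F. Both rose after GH 1 time (2.45 ± 0.24 and 1.03 ± 0.08) and after GH 2 times (1.54 ± 0.24 and 0.47 ± 0.08). Both were also called lower in MH over FH, with a median of -1.65, where 0.949% of all probes were called. Endothelial markers rose for 4 of 5 in each sex after hypophysectomy, lymphocyte markers for 4 of 8 in males and 3 of 8 in females, and macrophage markers for 1 of 7 and 3 of 7. Stellate cell markers rose for 3 of 6 in males, where 1 fell, and for 1 of 6 in females. Bile duct markers rose for 1 of 2 in each sex. The shares of all probes called there, in either direction, were 37.5% in males and 36.3% in females. Macrophage markers also had 1 higher and 4 lower of 7 in M over F (15.5% of all probes). After GH 1 time 4 of them were higher and 1 lower (14.3% of all probes). In MH over FH 1 of 7 was lower (0.949%), and after GH 2 times limma called none (1 at an unadjusted p under 0.05, against 30.8%). Pancreas markers had 2 higher and 1 lower of 3 in M over F (15.5% of all probes) and 1 higher and 2 lower of 4 in FH over F. Cpa1 had -4.15 ± 0.80 in FH over F (adjusted p = 0.00511) and Ela1 1.74 ± 0.20 in M over F (adjusted p = 0.000662). Of 8 hepatocyte markers, 3 fell in MH over M. They were Apoa1, the main protein of high-density lipoprotein (-2.74 ± 0.40, adjusted p = 0.00124), the protease inhibitor Serpina1 (-1.20 ± 0.14) and the plasma protein Ahsg (-1.04 ± 0.24). In FH over F 1 of the 8 was higher and 1 lower, and in M over F 2 were higher (15.5% of all probes called). For MH over FH limma called none (2 at an unadjusted p under 0.05, against 0.949% of all probes called). After GH 1 time 1 of 8 rose (14.3% of all probes called) and after GH 2 times 2 of 8 (30.8%). Among the latter was Fgb, the fibrinogen beta chain (1.48 ± 0.11). In liver pieces, fewer cells of a type and less RNA per cell cannot be told apart, and the part of these cells in the ratios of the 5 genes was not tested.

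The genes whose log ratios were most like each member's were sought among 8395 named genes over the 12 arrays, which share their RNAs and dyes, so that r is a description. For Fkbp5 they were siat7D (r = 0.97), Slc22a8 (0.97) and Slc16a4 (0.96), of which the organic anion transporter Slc22a8 had ratios of 3.65 in M over F and -2.96 in MH over M. For Mt1a they were Hsd17b2 (0.96), Rpl15 (0.96) and Rps3a (0.96). Hsd17b2, which oxidises sex steroids, had 1.83 in MH over M and 2.06 in FH over F, while the ribosomal protein genes Rpl15 and Rps3a had 0.39 and 0.46 in MH over M. For Serpina6 they were Rgl1 (0.97), Nqo1 (0.93) and Tnnt1 (0.93). The quinone reductase Nqo1 had 0.88 after GH 1 time and 0.01 after GH 2 times. For Sgk they were Ppwd1, Rab7 and Mark3 (0.95 each), and for Tsc22d3 Rpusd3 (0.97), Ube2e2 (0.96) and Ppp1r14c (0.96).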

How the data were processed

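Feature Extraction 9.1.3.1 made the scanner files, per the file headers. The deposited mean and background signals are intensities of 2 channels per spot. The deposited value table holds log2 ratios of channel 2 over channel 1, which matched the log2 ratio of the deposited processed intensities on all 12 arrays.

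Intensities were corrected with normexp (offset 50) and loess within each array in limma 3.58.1 (R 4.3.3). Control and outlier spots had weight 0. Ratios were turned by the dyes in the labels and averaged per probe. A probe was tested where either RNA passed the scanner's background test on both arrays. One fit over 29008 probes held 6 comparisons and a dye term (5 residual df, prior df 3.08).

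A gene was named by its brightest probe. Each list gave up to 4 called genes of largest ratio, besides Nr3c1 and Hsd11b1. The 5 genes, lists and tests were chosen with earlier results of these data known. The fit was tested on simulated data with independent noise on each array, which cannot test the effect of pools shared between arrays. On 1 array of GH given 1 time the treatment label lacks the hormone, and the title was used. Probe coordinates, not given in the sources used here, were not needed.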

Additional observations from a re-analysis of the deposited data

Results flagged for a closer look

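The response to hypophysectomy differed between males and females for 3 of the 5 genes, by a contrast in the fit. The male minus the female response was -0.51 for Fkbp5 (-0.20 in males and 0.33 in females), -0.78 for Sgk (-0.84 and -0.02) and 0.40 for Serpina6 (-0.16 and -0.60). For the brightest Fkbp5 probe both male arrays lay below 0 and both female arrays above it. Its male fall kept the call in 5 of 15 settings, and the second probe gave -0.02 in males. The call of the Serpina6 difference was lost in 10 of 20 alternatives.

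The response to GH differed between the regimens for Serpina6, by -1.14 (0.70 after GH 1 time and -0.43 after GH 2 times).

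By Dixon's test none of the 20 groups of 4 or 8 arrays (the level of 1 gene in 1 RNA) held an array past the 95% critical value. With 4 arrays only a very wide gap passes: 1 F array had Mt1a at 14.98, the next at 16.65, a gap of 0.796 of the range, and did not. The test sees single arrays, not sets of arrays.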

How the results depend on the processing

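Of the 337 repeats of the 22 called values of the 5 genes, 266 kept the call and 70 kept only the direction. The exception was Fkbp5 in MH over M, which turned to 0.035 with median centring. Of 418 repeats of the 28 values not called, 11 became calls. With 2 arrays a comparison, and 1 pool a GH regimen, small changes cannot be told from the spread.

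Probes called with median centring were 261 in M over F, 345 (35.1% higher, against 50.7%) in MH over M, 370 (38.6% higher, against 49.2%) in FH over F, 7 in MH over FH, 0 for GH 1 time (997 at an unadjusted limma p under 0.05) and 75 for GH 2 times. They were 118 for the difference of hypophysectomy responses, 0 for that of the GH groups (460 unadjusted), and 4 and 47 for the GH groups over M. Higher were 42.9% (against 55.9%) of the 7, 0% (against 53.1%) of the 4 and 25.5% (against 49.7%) of the 47. It moved the median of all probes by -0.13 in M over F, -0.11 in MH over FH, -0.10 for GH 2 times and -0.12 for the difference of the GH groups. Of the 5 genes it called 0 in M over F (2 unadjusted), 1 in MH over M, 1 in FH over F and 0 elsewhere (1 unadjusted for GH 2 times, for the difference of the GH groups and for each GH group over M).

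Without a dye term the probes called were 2600 in M over F, 83 in MH over FH, 2106 for GH 1 time, 1890 for the difference of responses, 1228 for that of the GH groups and 2664 for GH 1 time over M. Genes called were 1 for the difference of responses, and 0 (3 unadjusted) and 1 for the GH groups over M. With a coefficient for each RNA they were 6348 probes in M over F, 1014 in MH over FH and 1 of the 5 genes there. Probes called in MH over FH were 115 with processed signals, 113 with the deposited value table, 393 without background subtraction (42% higher, against 55.9%) and 62 where comparisons with and without GH were fitted apart.

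Fitted apart, with 1 residual degree of freedom, the GH comparisons had 12267 and 14863 probes and 3 and 4 of the 5 genes called, their difference 10689 probes and 4 genes, and the difference of responses 2022 probes. The difference of the GH groups was 4169 probes without background subtraction. The mean of all probes of a gene called 1 of the 5 for GH 2 times.

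With the replicate block, probes called in MH over FH were 143, and genes called were 3 in M over F, 2 in MH over M and 2 for the difference of responses. The calls lost were Mt1a in M over F (adjusted p = 0.0514 in limma), Fkbp5 in MH over M (0.0643), Serpina6 in the difference of responses (0.0633) and Serpina6 for GH 1 time over M (0.0596). Deviations of same-numbered arrays correlated at 0.86 (MH over M with MH over FH) and 0.74 (the GH comparisons) where MH was on the same side of both ratios. Where MH was on opposite sides they correlated at -0.68 (MH over M with each GH comparison) and at -0.32 and -0.34 (MH over FH with GH 1 time and 2 times). Pairs of comparisons that share no RNA ran from -0.54 (FH over F with GH 1 time) to 0.42 (M over F with GH 2 times). The numbers were not taken as pairing because not every pair lay above 0.1. That rule ignores which side of a ratio a shared RNA was on, so it cannot decide whether same-numbered arrays shared pools. Whether they did was not tested. The fit behind the main calls had no replicate block and treated the arrays as independent, so its p-values make no allowance for shared pools. With the slide as a random block no call of the 5 genes changed, nor with it as a fixed block, chosen after seeing the data, which was fitted only to the 5 comparisons without GH.

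Leaving out each array in turn gave 1292 to 1448 probes in M over F, 5648 to 8953 in MH over M, 3582 to 4157 in FH over F, 22 to 46 in MH over FH, 558 to 629 for GH 1 time and 4183 to 4870 for GH 2 times. It gave 1801 to 3683 for the difference of responses, 515 to 996 for that of the GH groups, 1202 to 5824 for GH 1 time over M and 3957 to 7841 for GH 2 times over M. The share higher was 67.4% (against 55.9%) in MH over FH without its second array, 64.3% to 67.6% (against 52.5%) for GH 1 time, 61.2% (against 48.8%) for GH 2 times without its second array and 57.6% to 74.9% (against 53.6%) for the difference of the GH groups. Genes called ranged from 1 to 3 in MH over M, 1 to 2 in FH over F, 0 for GH 1 time, 0 to 1 for GH 2 times, 1 to 3 for the difference of responses, 0 to 1 for that of the GH groups, 0 to 3 for GH 1 time over M and 1 to 4 for GH 2 times over M. The cause of these changes was not tested.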
